A study of Homo sapiens with 9 samples.

Results

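The proteasome genes described here were the protein-coding entries of the count table whose symbol was PSMA to PSMG with a number, without PSMB8 and PSMB9, together with POMP, ADRM1, NFE2L1 and VCP. This rule found 51 entries with 49 symbols among 31558 genes, of which 17201 were protein-coding. The 51 entries fell into 14 subunits of the core particle, 18 subunits of the regulatory particle and 19 others, which were inducible core subunits, assembly factors, activators, the inhibitor PSMF1, NFE2L1, VCP and second entries of PSMA1 and PSMA2. PSMA8, a testis form, had no entry. RNA came from HCT116, an established human colorectal cancer cell line, in 3 groups of 3 biological replicates. CRLM1-OE cells overexpressed CRLM1, a long non-coding RNA also named LINC01767. Ctrl cells carried the empty plasmid, and Anti cells carried a plasmid with the antisense sequence of CRLM1. The design text describes stable lines, and the methods a lentiviral pTSB-GFP-puro vector with puromycin selection, while the study's account of the sequencing speaks of transfected cells. Whether the replicates of a group shared 1 line or were separate transfections, and whether a line was a single clone, is not given in the sources used here. If they shared a line, differences between lines and an effect of the insert cannot be told apart, and the p-values measure only the spread between replicates of these lines.

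The proteasome degrades proteins marked with ubiquitin. Its core particle is a barrel of alpha rings around beta rings, and the beta subunits PSMB5, PSMB6 and PSMB7 carry the peptidase sites. The regulatory particle caps the barrel: its base holds a ring of ATPases that unfolds substrates, and its lid removes the ubiquitin chains. Dedicated chaperones build the particles, alternative activators can replace the regulatory particle, and the segregase VCP extracts ubiquitinated proteins from complexes and membranes. NFE2L1 is the transcription factor that drives proteasome genes when the proteasome is impaired, by binding antioxidant response elements. The proteasome is required in colorectal cancer cells as in other dividing cells, and PSMB5 is the target of the drug bortezomib.

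Each library held between 33302292 and 44514692 counts. CRLM1 had 32751 to 38704 counts in CRLM1-OE, 0 in the 3 Ctrl libraries and 1540 to 1951 in Anti. Reads from the antisense insert and from CRLM1 cannot be told apart in Anti, because the use of strand in counting is not given in the sources used here. Among the 7 epithelial markers examined, EPCAM, CDH1, KRT8, KRT18, KRT19 and CDX2 had at least 456 counts in each library, and VIL1 had 1 to 10 counts. Of the markers of other cell types, the leukocyte gene PTPRC had 0 to 2 counts, the endothelial gene PECAM1 0 to 6, the fibroblast gene COL1A2 0 to 1 and COL1A1 305 to 652, with COL1A1 at 617 to 652 in CRLM1-OE and 305 to 419 in the other libraries. Among the epithelial markers, KRT18 had 32694 to 41018 counts in CRLM1-OE and 62583 to 79054 in the controls, and KRT19 had 127343 to 148607 in Anti and 166211 to 221376 in the other libraries. The part of such differences between groups in the results below was not tested. Levels are given per sample as counts divided by library size (CPM) scaled by TMM factors, which correct each library for its composition (1.05 in CRLM1-OE and 0.94 to 0.95 in Ctrl), and tests are edgeR's quasi-likelihood test on counts with adjusted p at most 0.05. The scaling mattered here: with total counts in place of TMM factors, the median log2 fold change of 7936 well-read protein-coding genes (mean count of at least 500) moved from -0.07 to 0.08 for CRLM1-OE against Ctrl and from -0.03 to 0.08 for Anti against Ctrl. For CRLM1-OE against Anti it moved from -0.03 to 0.03. Changes of a group of members are therefore also given relative to that median.

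Some alpha subunit genes were counted under overlapping entries. PSMA1 was listed under ENSG00000256206 with 2485 to 3514 counts and under ENSG00000129084 with 255 to 341, and PSMA2 under ENSG00000256646 with 2288 to 2969 counts and under ENSG00000106588 with 7 to 30. The entry with the higher mean count stands for the gene below, although GENCODE 44 gives the gene's own name to the lower one. On the same strand, the PSMA1 entry used shares 33.3% of its exon bases with COPB1 (3543 to 4974 counts). The PSMA2 entry used shares 52.6% with C7orf25 (131 to 333 counts). The levels of PSMA1 and PSMA2 are therefore uncertain as well. PSMA6 had 158 to 227 counts, while an overlapping entry, ENSG00000258790, had 4242 to 5625. The level of PSMA6 is therefore uncertain, as is that of PSMB10, which shares 39.4% of its exon bases with an entry on the same strand (ENSG00000261884, 682 to 1056 counts). PSMC1 shares 76.1% of its exon bases with NRDE2 on the other strand, and reads of the pair cannot be told apart without strand.

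Transcript levels differed widely between subunits that stand in the particle in equal numbers. In Ctrl, the FPKM (fragments divided by exon length and library size, the authors' values) of the 32 subunit genes ran from 3.17 for PSMA6 to 231 for PSMB4, and the lowest apart from PSMA6 was PSMC6 at 8.89 ± 0.057 (SD, n = 3). The median FPKM was 84.0 for the 14 core subunits and 49.9 for the 18 regulatory subunits. PSMB4, a beta subunit, stood first at 231 ± 3.94, followed by PSMB3 at 203 ± 2.5, PSMB1 at 151 ± 2.87 and PSMD4, a ubiquitin receptor of the base, at 150.1 ± 6.47. Between neighbours in this order, 18 of 31 pairs did not overlap over the 3 Ctrl samples. The other 13 pairs overlapped, among them PSMB1 with PSMD4, PSMD4 with PSMB7, PSMA7 with ADRM1, and the run of PSMC4, PSMD2, PSMC5 and PSMD13 between 68.2 and 64.0. The low end held the lid subunit PSMD12 at 10.9 ± 0.465, the base scaffold PSMD1 at 13.0 ± 0.674 and PSMA4 at 14.1 ± 0.505.

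FPKM divides by a gene length assigned by the authors, which was not read directly here. Dividing unscaled CPM by FPKM implies 5249 bases for PSMA4, against 4378 in its canonical transcript. The implied length also holds any difference between the authors' library total and the sum of counts. For the PSMA1 entry used it was 1373 bases, more than its 1221 exon bases in GENCODE 44. Dividing the counts by the canonical transcript kept the order nearly the same (Spearman's rho of 0.973 across the 32 genes, which are not independent replicates), but it moved PSMA7 from place 7 to place 3. Both measures use the same counts, and their lengths track each other, so a high rho cannot show an order free of annotated length. In Ctrl, PSMB2 and PSMB6 had 114 and 127 CPM but 19.8 and 123 FPKM. Their canonical transcripts have 4426 and 824 bases. The lengths implied by their FPKM, 5447 and 981 bases, come from the same values and are no separate measure. Summed over the subunits, the core particle had 1272, 1272 and 1254 FPKM in CRLM1-OE. The Ctrl sums were 1258, 1260 and 1252 and the Anti sums 1226, 1227 and 1219. The regulatory particle had 915.9, 902 and 899 FPKM in CRLM1-OE. Ctrl had 934, 905 and 907 and Anti 879.8, 873 and 879. The Anti sums lay below those of both other groups for the core particle and for the regulatory particle, and those of CRLM1-OE overlapped with Ctrl. The ratio of the core sum to the regulatory sum was 1.40 ± 0.012 in CRLM1-OE (SD, n = 3). It was 1.37 ± 0.021 in Ctrl and 1.39 ± 0.0058 in Anti, and the 3 ranges overlapped. FPKM values follow total counts, so these sums do not carry the TMM correction.

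**Figure D1:**
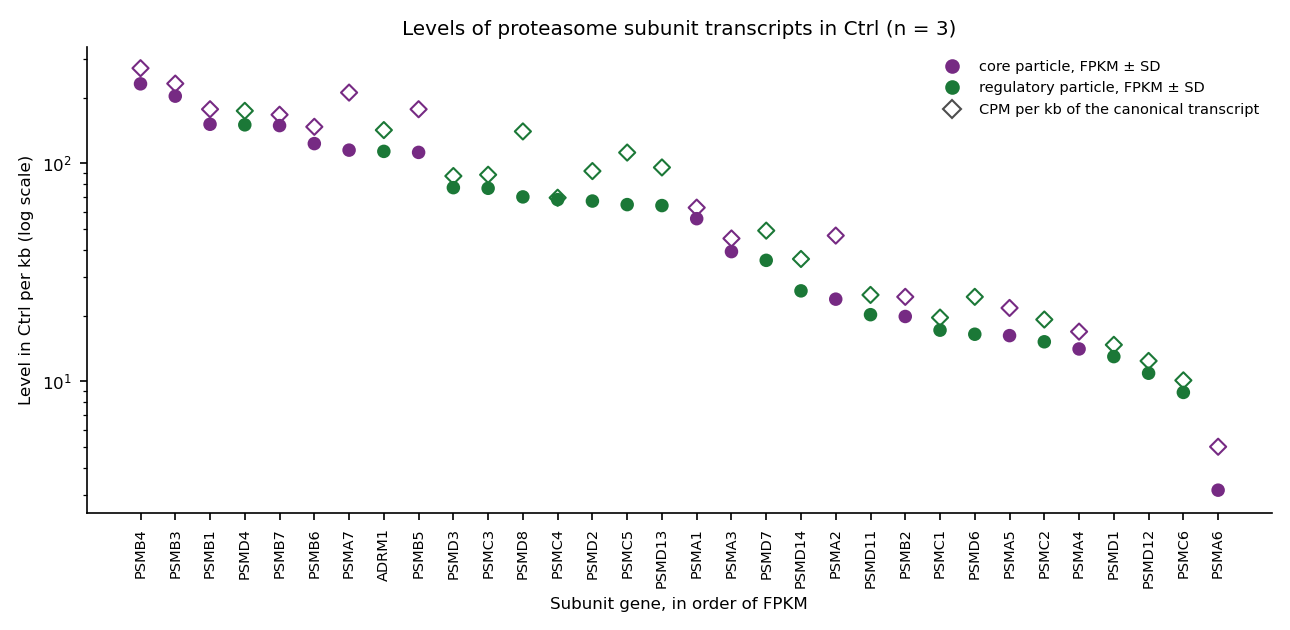
FPKM of the 32 subunit genes in Ctrl on a log scale (circles, mean ± SD, n = 3, core particle in purple and regulatory particle in green), with CPM per kb of the canonical transcript as open diamonds. Levels ran from 231 FPKM for PSMB4 to 3.17 for PSMA6, whose reads are shared with an overlapping entry.

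The first comparison, CRLM1-OE with Ctrl, asked which genes the overexpressed RNA changed against the empty plasmid. With TMM factors 30 of the 51 members fell, 5 rose and 16 did not pass, against 16.8% lower and 15% higher of the 29846 genes tested. In bulk RNA, fewer cells of a kind and less RNA per cell cannot be told apart. Among the well-read protein-coding genes, which are counted as deeply as most members, 44.8% were lower and 28.8% higher. The members thus had 58.8% lower and 9.80% higher, and with total counts the split turned to 13 lower and 18 higher members, where the well-read genes had 26.2% lower and 46.2% higher. Under the study's rule of at least a 2-fold change, 3.41% of all genes were called but 0 members, with 0 also at an unadjusted p under 0.05 in edgeR and 0 in DESeq2 and limma. The medians of the particles lay 0.07 (core) and 0.11 (regulatory) below the median of the well-read genes on the log2 scale.

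Within the core particle, 8 of 14 subunits fell and PSMB2 rose, with a median log2 fold change of -0.14, against 0.02 for all genes tested. Of the well-read genes 44.8% were lower and 28.8% higher, with a median of -0.07. With total counts the core median was 0.00, and 6 core subunits were then higher and 2 lower. The alpha subunits PSMA1, PSMA3, PSMA4 and PSMA7 fell, and PSMA2, PSMA5 and PSMA6 did not pass (with total counts 3 alpha subunits rose and 1 fell). PSMA3 had 36.5, 37.9 and 38.1 in the CRLM1-OE samples, 46.9, 43.7 and 45.6 in Ctrl and 49.3, 48.4 and 45.6 in Anti (CPM). The CRLM1-OE values lay below both control groups, with log2 fold changes (± SE, edgeR) of -0.28 ± 0.043, adjusted p = 1.31e-09 against Ctrl and -0.35 ± 0.042, adjusted p = 6.50e-16 against Anti, and both calls held at the adjusted p threshold under each other scaling, filter, test and unit tried and with each library left out. PSMA1 fell by 0.21 ± 0.035 on the log2 scale, with 69.97, 70.9 and 67.7 CPM in CRLM1-OE and 81.2, 83.6 and 76.8 in Ctrl, groups that did not overlap. PSMA4 fell by 0.17 ± 0.035. Neither of these calls held with total counts. The PSMA1 entry under the gene's own ID did not pass against Ctrl (-0.14 ± 0.094, adjusted p = 0.322, edgeR). It did not pass against Anti either (-0.20 ± 0.092, adjusted p = 0.0868, edgeR). PSMA7 had a log2 fold change of -0.06 with TMM factors and 0.08 with total counts, and the test called it lower and higher in turn. With TMM factors its adjusted p of 0.0421 (edgeR) lay between 0.0889 and 0.392 (edgeR) when CRLM1-OE replicate 2 or 3 or Ctrl replicate 2 or 3 was left out.

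The peptidase subunits moved unequally. PSMB5, the chymotrypsin-like site, had 168, 166 and 167 in the CRLM1-OE samples, 194, 193 and 196 in Ctrl and 168, 169.8 and 171 in Anti (CPM). Both CRLM1-OE and Anti lay below Ctrl, with a log2 fold change of -0.22 ± 0.027, adjusted p = 2.89e-15 (edgeR) for CRLM1-OE against Ctrl, while CRLM1-OE and Anti overlapped. PSMB7, the trypsin-like site, fell in CRLM1-OE (-0.17 ± 0.027, adjusted p = 5.81e-09; edgeR), and this call was lost with total counts. PSMB6, the caspase-like site, had 128, 128 and 125 CPM in CRLM1-OE and 126, 129 and 126 in Ctrl, which overlapped (adjusted p = 0.982, edgeR). PSMB3 (-0.15) and PSMB4 (-0.12) fell, but with total counts they stood at -0.01 and 0.02 and did not pass. PSMB1 did not pass, and PSMB2 was the single core subunit that rose with TMM factors. PSMB2 had 124, 125 and 126 in the CRLM1-OE samples, 115, 112 and 114 in Ctrl and 112, 115 and 114 in Anti (CPM). All 3 CRLM1-OE values were above the 6 control values, with log2 fold changes of 0.14 ± 0.030, adjusted p = 1.23e-05 against Ctrl and 0.14 ± 0.027, adjusted p = 6.38e-07 against Anti (edgeR), and the calls held at the adjusted p threshold under the same settings as those of PSMA3.

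Subunits specific to thymus or induced by interferon behaved differently from one another. PSMB11, the thymus form, had 0 to 2 counts per library, below the floor of 3 counts, and no fold change is given. PSMB10, the inducible counterpart of PSMB7, had 2.90, 3.14 and 3.56 in the CRLM1-OE samples, 5.58, 6.47 and 5.82 in Ctrl and 9.06, 7.72 and 6.74 in Anti (CPM), the largest fall of the members with a mean count of at least 100. Its log2 fold change was -0.90 ± 0.12, adjusted p = 1.25e-12 against Ctrl and -1.30 ± 0.11, adjusted p = 1.04e-30 against Anti (edgeR), and both calls held at the adjusted p threshold under the settings named for PSMA3. The overlapping entry also fell, by 0.21 and 0.37 on the log2 scale, so how much of the fall belongs to PSMB10 itself cannot be told. PSMB8 and PSMB9, the other inducible subunits, lie outside the rule. PSMB8 had 1.03, 0.799 and 0.807 in the CRLM1-OE samples, 0.425, 0.379 and 0.629 in Ctrl and 0.568, 0.506 and 0.398 in Anti (CPM) and rose by 0.89 ± 0.29, adjusted p = 0.00935 against Ctrl (edgeR), on 13 to 45 counts per library. The adjusted p of PSMB8 reached 0.065 among the alternatives. PSMB9 had 20.6, 19.1 and 20.5 CPM in CRLM1-OE and 23.7, 23.7 and 20.5 in Ctrl, overlapping groups with a log2 fold change of -0.17 ± 0.058, adjusted p = 0.0103 (edgeR), which did not pass with total counts.

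**Figure D2:**
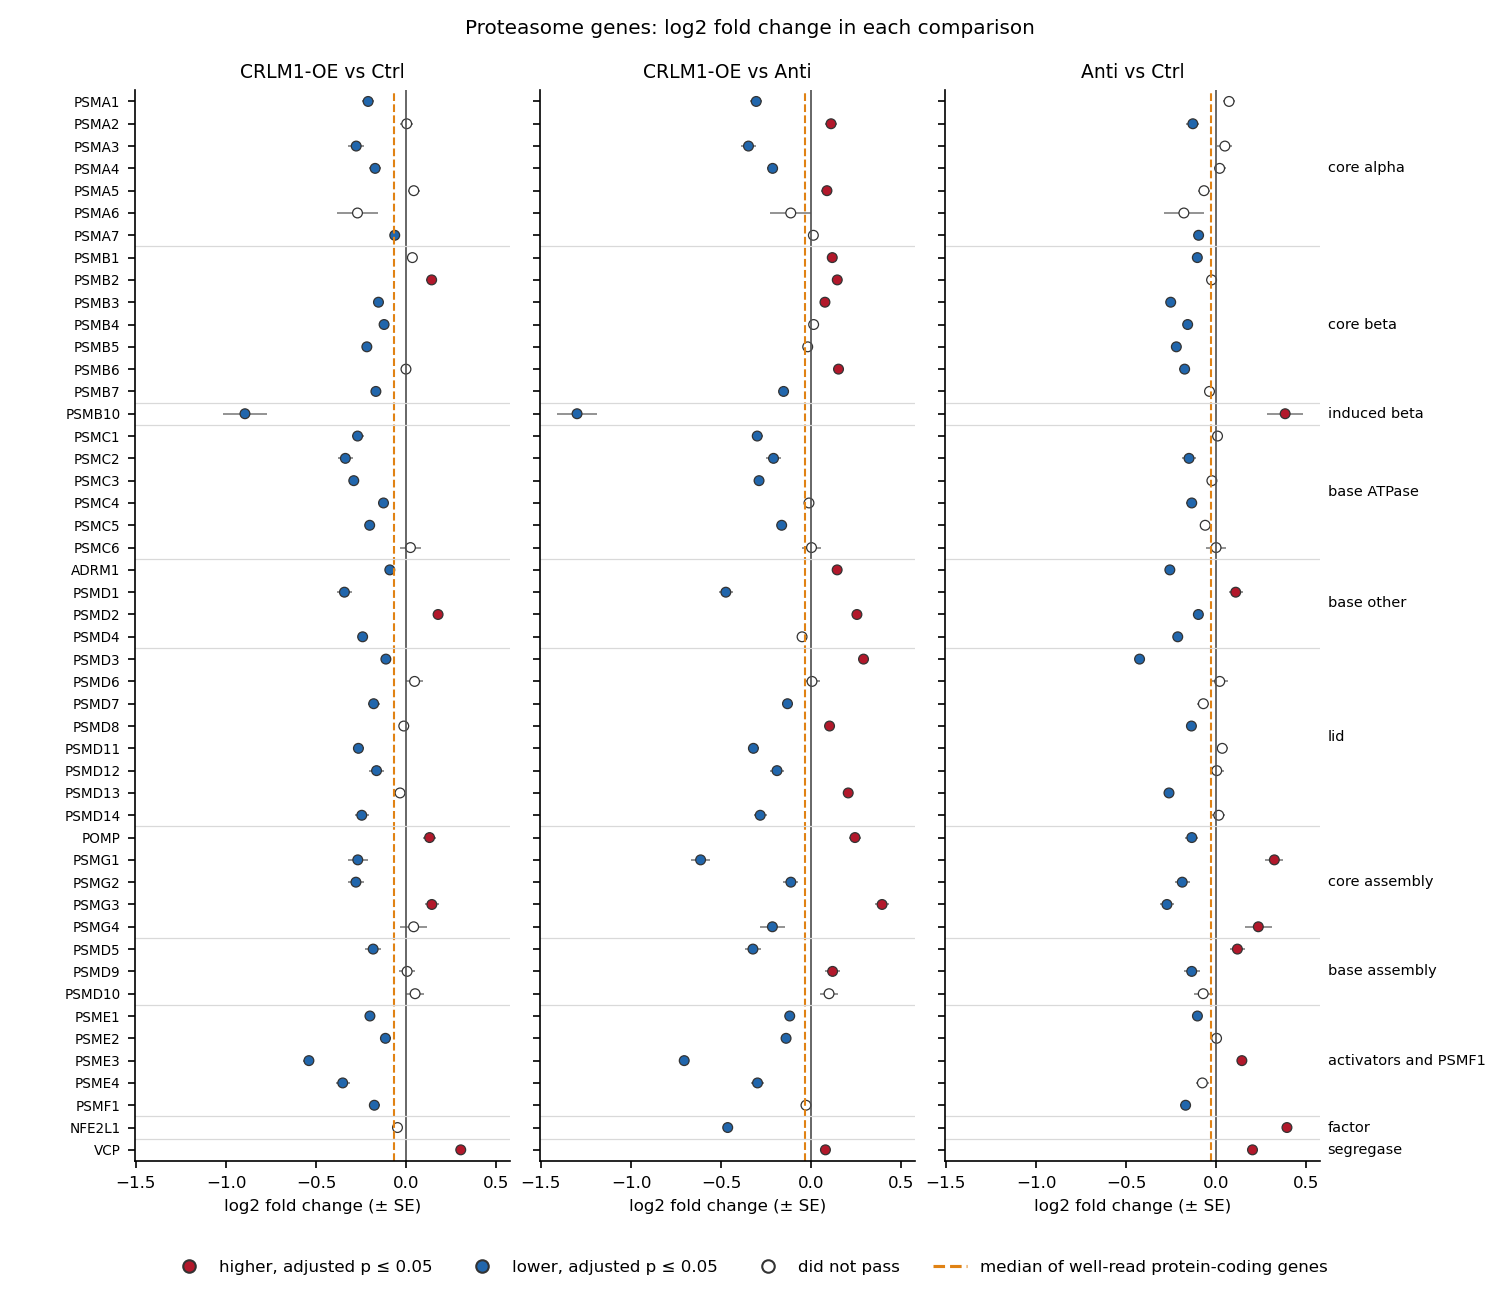
Log2 fold change ± SE (edgeR) of the 48 members with a mean count of at least 100, second entries left out, in role order, for each comparison. Filled points passed at an adjusted p of at most 0.05 and the dashed line is the median of the well-read protein-coding genes with TMM factors; in the first panel 30 of all 51 members were lower, which with total counts became 13.

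In the regulatory particle, 13 of 18 subunits fell in CRLM1-OE against Ctrl, PSMD2 rose and 4 did not pass, with a median log2 fold change of -0.17. With total counts 7 fell and 5 rose, and the median was -0.03. Of the well-read genes 44.8% were lower and 28.8% higher with TMM factors, with a median of -0.07. Of the 6 base ATPases, PSMC1, PSMC2, PSMC3, PSMC4 and PSMC5 fell and PSMC6 did not pass, which with total counts became 3 lower and 1 higher. PSMC3 had 119, 117 and 116 in the CRLM1-OE samples, 145, 143 and 142 in Ctrl and 147, 141 and 143 in Anti (CPM). The control groups overlapped with each other and lay above CRLM1-OE, whose log2 fold changes were -0.29 ± 0.029, adjusted p = 2.10e-22 against Ctrl and -0.29 ± 0.027, adjusted p = 1.61e-26 against Anti (edgeR). PSMC2 had 44.2, 43.6 and 42.4 in the CRLM1-OE samples, 56.7, 55.00 and 52.9 in Ctrl and 50.96, 48.6 and 51.4 in Anti (CPM). PSMC1, which shares bases with NRDE2, had 73.7, 74.1 and 76.8 in the CRLM1-OE samples, 90.2, 88.4 and 92.4 in Ctrl and 92.2, 94.8 and 90.03 in Anti (CPM). Both were lowest in CRLM1-OE, and PSMC2 in Anti lay below Ctrl. Their log2 fold changes against Ctrl were -0.34 ± 0.041, adjusted p = 1.11e-15 and -0.27 ± 0.033, adjusted p = 7.58e-15 (edgeR), and against Anti -0.21 and -0.30. The calls of PSMC1, PSMC2 and PSMC3 held at the adjusted p threshold under the settings named for PSMA3, while those of PSMC4 (-0.13) and PSMC5 (-0.20) against Ctrl were lost with total counts, where PSMC4 turned to 0.02.

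The large base scaffolds PSMD1 and PSMD2 went in opposite directions. PSMD1 (ENSG00000173692, chr2:231056845-231173116) had 40.3, 39.9 and 41.3 in the CRLM1-OE samples, 53.4, 52.2 and 48.5 in Ctrl and 54.3, 56.1 and 58.9 in Anti (CPM). Its log2 fold change was -0.34 ± 0.042, adjusted p = 2.41e-15 against Ctrl and -0.47 ± 0.040, adjusted p = 6.54e-32 against Anti (edgeR), and no CRLM1-OE value reached a control value. PSMD2 (ENSG00000175166, chr3:184299198-184309050) had 319, 324 and 314 in the CRLM1-OE samples, 292, 279.5 and 275 in Ctrl and 267, 272 and 266 in Anti (CPM). It rose by 0.18 ± 0.024, adjusted p = 1.21e-12 against Ctrl and 0.25 ± 0.021, adjusted p = 1.61e-31 against Anti (edgeR), and its 3 CRLM1-OE values stood above the 6 control values. The ubiquitin receptor PSMD4 had 209.5, 203 and 199.9 in the CRLM1-OE samples, 252, 234 and 238 in Ctrl and 211, 212 and 213 in Anti (CPM), so CRLM1-OE and Anti both lay below Ctrl. PSMD4 fell against Ctrl by 0.24 and ADRM1, another ubiquitin receptor, by 0.09 on the log2 scale. ADRM1 turned to 0.05 with total counts, and its call was lost without Ctrl replicate 3 (-0.07, adjusted p = 0.0568, edgeR).

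Of the 8 lid subunits listed, PSMD3, PSMD7, PSMD11, PSMD12 and PSMD14 fell against Ctrl, and PSMD6, PSMD8 and PSMD13 did not pass. With total counts 2 lid subunits fell and 3 rose. Among the well-read genes 44.8% were lower with TMM factors and 26.2% with total counts. PSMD14, the deubiquitinase of the lid, had 50.5, 49.98 and 51.4 in the CRLM1-OE samples, 59.6, 61.9 and 58.9 in Ctrl and 61.4, 62.7 and 61.1 in Anti (CPM). PSMD11, a scaffold of the lid, had 86.5, 82.6 and 82.4 in the CRLM1-OE samples, 99.05, 103 and 101 in Ctrl and 103, 109 and 102 in Anti (CPM). For both genes CRLM1-OE lay below the controls, with log2 fold changes against Ctrl of -0.25 ± 0.039, adjusted p = 1.52e-09 and -0.27 ± 0.032, adjusted p = 1.77e-15 and against Anti of -0.28 ± 0.037, adjusted p = 1.17e-13 and -0.32 ± 0.030, adjusted p = 2.63e-26 (edgeR), and these calls held at the adjusted p threshold under the settings named for PSMA3. PSMD7 (-0.18) and PSMD12 (-0.16) lost the call against Ctrl with total counts. PSMD3 fell by 0.11 against Ctrl with TMM factors but stood at 0.03 with total counts. SEM1, the smallest lid subunit, is listed under its older symbol SHFM1 and falls outside the rule. It had a log2 fold change of 0.05 ± 0.041, adjusted p = 0.458 against Ctrl and 0.41 ± 0.042, adjusted p = 3.90e-21 against Anti (edgeR).

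Core chaperones did not move together. POMP, the maturation factor of the core particle, and PSMG3 rose, PSMG1 and PSMG2 fell, and PSMG4 did not pass (with total counts 3 rose and 1 fell). POMP had 68.9, 68.5 and 71.9 in the CRLM1-OE samples, 61.7, 65.6 and 64.3 in Ctrl and 58.1, 59.5 and 59.8 in Anti (CPM). It rose by 0.13 ± 0.036, adjusted p = 0.00144 against Ctrl and 0.24 ± 0.035, adjusted p = 1.81e-11 against Anti (edgeR), with CRLM1-OE above both. PSMG1 had 22.3, 22.3 and 21.3 in the CRLM1-OE samples, 26.4, 26.6 and 26.5 in Ctrl and 33.7, 32.2 and 35.3 in Anti (CPM), so the 3 groups were fully separated, with Anti highest. Its log2 fold change was -0.27 ± 0.055, adjusted p = 5.91e-06 against Ctrl and -0.61 ± 0.051, adjusted p = 1.87e-32 against Anti (edgeR), and the first call was lost with total counts. PSMG3 had 55.7, 60.96 and 57.5 in the CRLM1-OE samples, 50.8, 53.6 and 53.5 in Ctrl and 41.4, 44.5 and 47.1 in Anti (CPM) and rose by 0.14 ± 0.039, adjusted p = 0.00111 against Ctrl and 0.39 ± 0.038, adjusted p = 2.45e-23 against Anti (edgeR). Its call against Ctrl was lost without CRLM1-OE replicate 2 (0.10, adjusted p = 0.0683, edgeR). PSMG2 fell by 0.28 against Ctrl and by 0.11 against Anti on the log2 scale. The second of these calls was lost without CRLM1-OE replicate 1 (-0.08, adjusted p = 0.221) and without Anti replicate 2 (-0.08, adjusted p = 0.215; edgeR), and with total counts. Among the base chaperones PSMD5 fell (-0.18 ± 0.045, adjusted p = 0.000209 against Ctrl, edgeR; lost with total counts), and PSMD9 and PSMD10 did not pass.

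All 5 activators and inhibitors fell against Ctrl with TMM factors, and with total counts PSME3 and PSME4 kept the call while PSME2 turned to 0.03. The share of well-read genes that were lower was 44.8% with TMM factors and 26.2% with total counts. PSME3, the nuclear activator also named REG gamma (ENSG00000131467, chr17:42824385-42843760), had 86.9, 88.1 and 86.9 in the CRLM1-OE samples, 129.9, 126 and 125 in Ctrl and 142, 146 and 141 in Anti (CPM). The 3 CRLM1-OE values lay below the 6 control values, with log2 fold changes of -0.54 ± 0.031, adjusted p = 6.02e-67 against Ctrl and -0.70 ± 0.028, adjusted p = 1.16e-138 against Anti (edgeR). PSME4, the large activator PA200, had 47.7, 46.2 and 47.7 in the CRLM1-OE samples, 61.1, 61.1 and 58.7 in Ctrl and 58.4, 57.1 and 59.05 in Anti (CPM). Its log2 fold changes were -0.35 ± 0.039, adjusted p = 3.54e-18 against Ctrl and -0.30 ± 0.038, adjusted p = 3.05e-14 against Anti (edgeR), and its Ctrl and Anti values overlapped. PSME1 and PSME2, the interferon-induced activator subunits, had log2 fold changes of -0.20 and -0.12 against Ctrl and of -0.12 and -0.14 against Anti, where all 4 passed. PSME1 had 136, 128 and 134 in the CRLM1-OE samples, 151, 154 and 154 in Ctrl and 140.0, 146 and 148 in Anti (CPM). PSME1 in Anti lay between the other groups. PSMF1, an inhibitor of the core particle, fell against Ctrl (-0.18 ± 0.030, adjusted p = 1.68e-08, edgeR) and overlapped with Anti (118, 109 and 113 against 114, 119.7 and 114 CPM).

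VCP rose in CRLM1-OE. VCP (ENSG00000165280, chr9:35053928-35072668) had 182, 179 and 174 in the CRLM1-OE samples, 147, 140.1 and 147 in Ctrl and 168, 166 and 174 in Anti (CPM). CRLM1-OE and Anti overlapped and both stood above Ctrl, with log2 fold changes of 0.30 ± 0.028, adjusted p = 8.24e-27 for CRLM1-OE against Ctrl, 0.20 ± 0.027, adjusted p = 4.22e-12 for Anti against Ctrl and 0.08 ± 0.024, adjusted p = 0.00421 for CRLM1-OE against Anti (edgeR). The last call was lost without CRLM1-OE replicate 1 (0.06, adjusted p = 0.0644, edgeR). NFE2L1 (ENSG00000082641, chr17:48048329-48061545) set Anti apart. It had 248, 252 and 244 in the CRLM1-OE samples, 263, 253 and 254 in Ctrl and 341, 338 and 349 in Anti (CPM). Anti stood above both other groups, with log2 fold changes of 0.39 ± 0.024, adjusted p = 3.48e-59 for Anti against Ctrl and -0.46 ± 0.021, adjusted p = 3.48e-103 for CRLM1-OE against Anti (edgeR). CRLM1-OE and Ctrl did not pass (-0.05 ± 0.025, adjusted p = 0.133, edgeR), while with total counts CRLM1-OE stood 0.09 higher and passed.

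**Figure D3:**
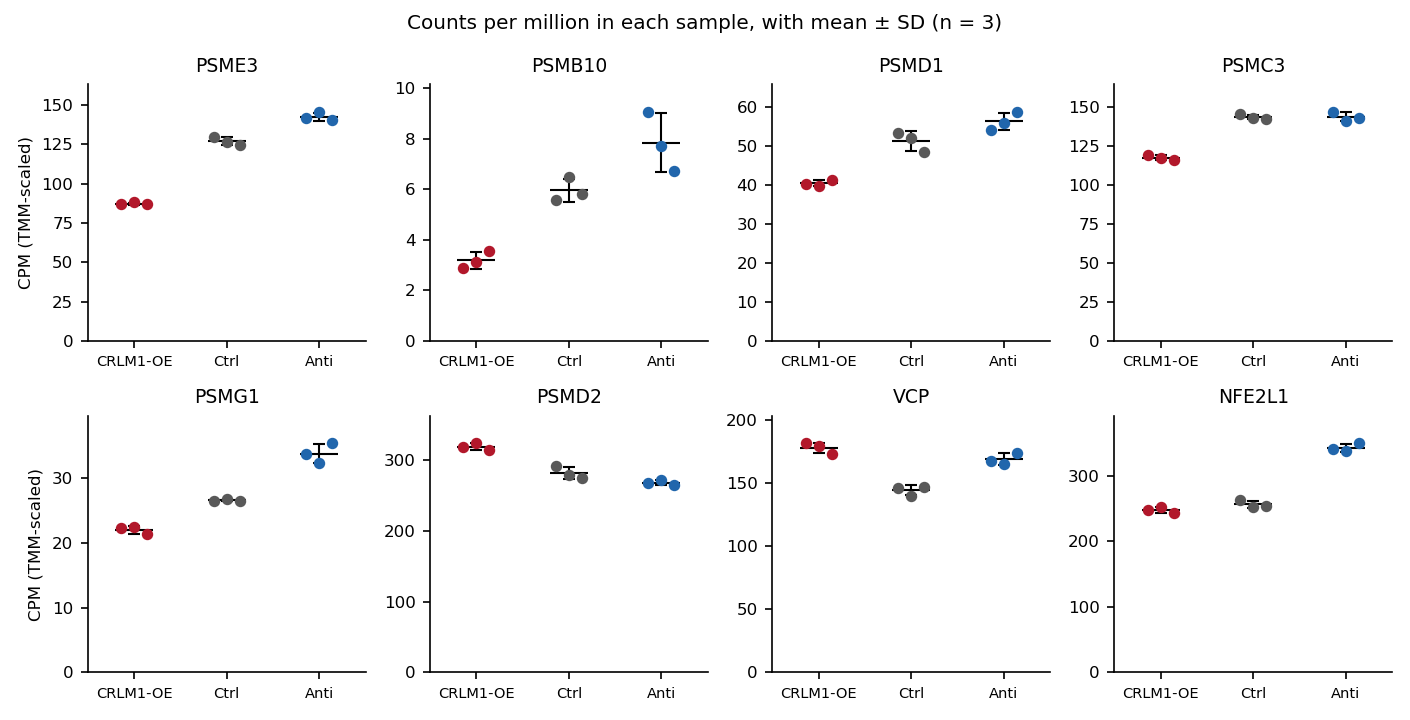
TMM-scaled CPM of 8 members in each sample (points) with mean ± SD (n = 3 per group), axes from 0. PSME3, PSMB10, PSMD1, PSMC3 and PSMG1 are lowest in CRLM1-OE, PSMD2 is highest there, VCP is lowest in Ctrl and NFE2L1 is highest in Anti.

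Against Anti, the control with the antisense insert, members split more evenly. With TMM factors 24 members fell, 15 rose and 12 did not pass, against 18.5% lower and 17.1% higher of the 30183 genes tested and 42.6% lower and 35.7% higher of the well-read genes. With total counts 21 fell and 18 rose. The core particle had 6 higher and 4 lower subunits (median 0.01), and the regulatory particle 5 higher and 9 lower (median -0.09), where all genes tested had a median of -0.02. The core median was -0.01 without CRLM1-OE replicate 1, 0.03 without CRLM1-OE replicate 3 and 0.03 without Anti replicate 2. At the 2-fold rule edgeR called 5.65% of all genes and 2 members, while DESeq2 called 2 members and limma 0. The members called in edgeR were PSMB10 and the second entry of PSMA2. That entry had 7 to 30 counts, with 0.319, 0.314 and 0.252 CPM in CRLM1-OE and 0.716, 0.799 and 0.768 in Anti, while the entry that stands for PSMA2 rose by 0.11.

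The beta subunits PSMB1, PSMB2, PSMB3 and PSMB6 rose against Anti, and PSMB7 fell. PSMB3 lost its call without Anti replicate 3 (0.05, adjusted p = 0.146, edgeR). PSMD3, a lid scaffold, rose by 0.29 ± 0.025, adjusted p = 1.32e-30 (edgeR), with 183, 178 and 186 in the CRLM1-OE samples, 198, 197 and 197 in Ctrl and 148, 151 and 149.8 in Anti (CPM). Its order was thus Ctrl, CRLM1-OE and Anti, with no overlap between groups. PSMD13 rose by 0.21 ± 0.026, adjusted p = 1.11e-14 (edgeR) with 157, 156 and 156 CPM in CRLM1-OE and 133, 136 and 139 in Anti. ADRM1, PSMB3 and PSMD3 were the 3 members that fell against Ctrl and rose against Anti. ADRM1 rose by 0.14 and PSMD8 by 0.10 on the log2 scale. PSMA2 and PSMA5 rose as well, by 0.11 and 0.09, and PSMA5 lost its call without CRLM1-OE replicate 1 (0.07, adjusted p = 0.101) or Anti replicate 1 (0.08, adjusted p = 0.0591; edgeR). The base chaperone PSMD9 rose by 0.12 (0.07 and adjusted p = 0.34 without CRLM1-OE replicate 1; 0.11 and adjusted p = 0.0588 without Anti replicate 3; edgeR). PSMG4 fell by 0.22 on the log2 scale, and its adjusted p of 0.00761 was 0.113 without CRLM1-OE replicate 1, 0.0859 without CRLM1-OE replicate 3 and 0.129 without Anti replicate 2 (edgeR).

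The 2 controls also differed from each other. In Anti against Ctrl 21 members fell, 9 rose and 21 did not pass with TMM factors, against 12.2% lower and 11.5% higher of the 29714 genes tested and 35.9% lower and 25.5% higher of the well-read genes. With total counts 7 fell and 21 rose, and without Anti replicate 2 the number that rose with TMM factors was 5. The core median was -0.10 with 7 of 14 subunits lower, and the regulatory median -0.07 with 8 of 18 lower and PSMD1 higher. With total counts these medians were 0.00 and 0.04. They lay below the well-read median by 0.07 for the core and 0.04 for the regulatory particle. The regulatory median was -0.04 without Ctrl replicate 1. The 2-fold rule called 1.06% of all genes and 0 members in edgeR, with 0 also at an unadjusted p under 0.05 and 0 in DESeq2 and limma. The largest changes of the well-counted members were those of PSMD3 (-0.43 ± 0.027, adjusted p = 1.48e-54), NFE2L1, PSMB10 (0.38 ± 0.10, adjusted p = 0.000729), PSMG1 (0.32 ± 0.050, adjusted p = 2.14e-09) and PSMG3 (-0.27 ± 0.041, adjusted p = 3.20e-10; edgeR). The PSMB10 rise was lost without Anti replicate 1 (0.26, adjusted p = 0.0946, edgeR). The log2 fold changes of PSMD13, ADRM1, PSMB3 and PSMB5 were -0.26, -0.26, -0.25 and -0.22, which also passed with total counts. PSMD1 (0.11) lost its call without Ctrl replicate 3 (0.08, adjusted p = 0.214) or Anti replicate 2 (0.11, adjusted p = 0.0602) or 3 (0.09, adjusted p = 0.192; edgeR). PSMD5 (0.12) lost it without Ctrl replicate 1 (0.12, adjusted p = 0.0558) or 3 (0.11, adjusted p = 0.0756) or Anti replicate 2 (0.09, adjusted p = 0.219; edgeR). PSMD9 (-0.14) lost it without Ctrl replicate 2 (-0.11, adjusted p = 0.0927) or 3 (-0.11, adjusted p = 0.0846), and PSMG4 (0.23) without Ctrl replicate 1 (0.16, adjusted p = 0.166) or Anti replicate 2 (0.18, adjusted p = 0.113; edgeR).

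**Figure D4:**
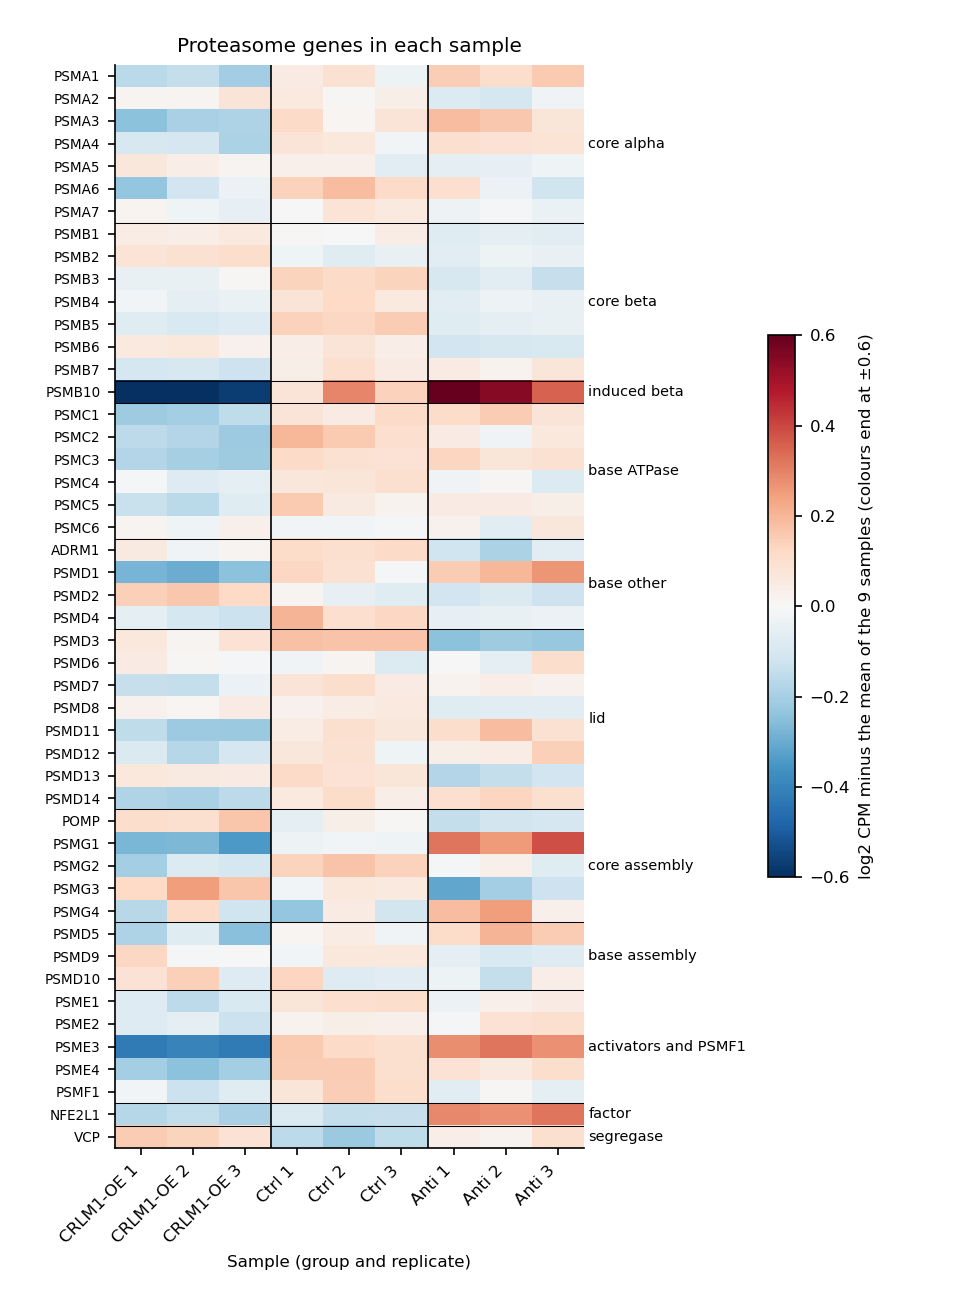
Log2 CPM (TMM-scaled) of 48 members in the 9 samples as the difference from each member's mean over the samples, in role order, with colours ending at ±0.6. PSMB10, PSME3, PSMD1 and PSMG1 are lowest in the 3 CRLM1-OE samples, and PSMD3 and PSMD13 in the 3 Anti samples.

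Both CRLM1-OE comparisons use the same CRLM1-OE samples. With TMM factors 21 of the 51 members (41.2%) were lower and 5 (9.80%) higher in both. Of the 28471 genes tested in both, 13.6% were lower and 11.7% higher in both, and of the 7936 well-read protein-coding genes 34.1% were lower and 22.8% higher. Of the 21, 10 kept both calls under each other scaling, filter, test and unit tried: PSMA3 of the core, PSMC1, PSMC2, PSMC3, PSMD1, PSMD11 and PSMD14 of the regulatory particle, and PSMB10, PSME3 and PSME4. The others of the 21 were PSMA1, PSMA4, PSMB7, PSMC5, PSMD5, PSMD7, PSMD12, PSME1, PSME2, PSMG1 and PSMG2. The 5 higher were PSMB2, PSMD2, POMP, PSMG3 and VCP, which kept both calls under the same fits. When single libraries were left out, the 10 lower members and PSMB2, PSMD2 and POMP kept both calls. Members that did not pass in any of the 3 comparisons were PSMA6, PSMB11, PSMC6, PSMD6, PSMD10 and the second entry of PSMA1.

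Genes that work with the proteasome were read from further lists. Among the well-read protein-coding genes, 44.8% were lower and 28.8% higher against Ctrl, and 42.6% lower and 35.7% higher against Anti. With total counts these shares were 26.2% and 46.2% against Ctrl, and 36.4% and 42.3% against Anti. The list counts below are to be read beside these shares. In the pathway around NFE2L1, 4 of 9 processing genes fell and 1 rose against Ctrl, and 4 fell and 3 rose against Anti, with medians of -0.06 and -0.02 (with total counts 3 and 3 against Ctrl). SEL1L, an adaptor of the endoplasmic reticulum ligase that handles NFE2L1, had 38.2, 39.2 and 36.99 in the CRLM1-OE samples, 63.9, 64.7 and 59.9 in Ctrl and 97.2, 95.4 and 97.2 in Anti (CPM). The 3 groups were separated and ordered as for PSMG1, with log2 fold changes of -0.72 ± 0.041 against Ctrl and -1.34 ± 0.035 against Anti. DDI2, the protease that cleaves NFE2L1, had 25.2, 23.2 and 24.6 in the CRLM1-OE samples, 24.9, 24.7 and 25.3 in Ctrl and 34.8, 32.8 and 32.5 in Anti (CPM), highest in Anti as NFE2L1 was, and did not pass between CRLM1-OE and Ctrl (adjusted p = 0.698, edgeR). FBXW7, a ligase subunit for NFE2L1, had 17.5, 17.4 and 19.6 in the CRLM1-OE samples, 10.5, 10.8 and 10.04 in Ctrl and 14.3, 12.9 and 12.8 in Anti (CPM) and rose by 0.80 ± 0.071, adjusted p = 3.35e-28 against Ctrl (edgeR).

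Among 6 related factors and their MAF partners, 5 rose and 1 fell against Ctrl, while 3 rose and 2 fell against Anti, with medians of 0.23 and 0.04 and the same counts with total counts. MAFK, a small MAF partner of NFE2L1, had 158, 149 and 157 in the CRLM1-OE samples, 85.7, 93.4 and 90.7 in Ctrl and 98.8, 99.7 and 98.4 in Anti (CPM) and rose by 0.78 ± 0.030, adjusted p = 1.18e-148 against Ctrl (edgeR). NFE2L2, the relative that controls antioxidant genes, had 50.9, 53.9 and 52.6 in the CRLM1-OE samples, 79.7, 83.1 and 76.9 in Ctrl and 71.6, 75.8 and 74.3 in Anti (CPM) with a log2 fold change of -0.61 ± 0.036, adjusted p = 2.06e-60 against Ctrl (edgeR). MAFF rose by 0.25 against Ctrl and 0.54 against Anti. Against Ctrl, 44.8% of the well-read genes were lower and 28.8% higher, with a median of -0.07. Of 10 VCP cofactors 8 fell and 2 rose against Ctrl, with a median of -0.23, while VCP itself rose. Against Anti 7 fell and 1 rose, with a median of -0.12. With total counts 5 fell and 2 rose against Ctrl, and 4 fell and 3 rose against Anti.

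Of 10 enzymes and adaptors bound to the proteasome, 4 rose and 4 fell against Ctrl and again 4 and 4 against Anti, with medians of -0.03 and 0.02. With total counts 6 rose and 3 fell against Ctrl. ECPAS, an adaptor of the regulatory particle, had 44.8, 46.8 and 45.7 in the CRLM1-OE samples, 76.7, 74.9 and 71.4 in Ctrl and 78.96, 77.5 and 80.4 in Anti (CPM) with a log2 fold change of -0.70 ± 0.038, adjusted p = 1.30e-74 against Ctrl (edgeR). UCHL5, the deubiquitinase held by ADRM1, had 15.1, 15.9 and 14.1 in the CRLM1-OE samples, 23.2, 23.1 and 21.3 in Ctrl and 25.4, 26.2 and 26.4 in Anti (CPM) with a log2 fold change of -0.59 ± 0.062, adjusted p = 7.07e-20 against Ctrl (edgeR). USP14, the other deubiquitinase bound at the base, had log2 fold changes of -0.25 against Ctrl, which was lost with total counts, and -0.57 against Anti. PAAF1, which binds the base ATPases during assembly, had 22.96, 25.4 and 24.3 in the CRLM1-OE samples, 16.4, 15.5 and 16.4 in Ctrl and 16.3, 19.3 and 15.6 in Anti (CPM) and rose by 0.59 ± 0.061, adjusted p = 5.54e-21 (edgeR). RPS27A, a gene for ubiquitin fused to a ribosomal protein, had log2 fold changes of -0.28 against Ctrl and -0.17 against Anti, and both calls held with total counts. Of 7 E1 and shuttle genes 1 rose and 3 fell against Ctrl, and 4 rose and 2 fell against Anti, while with total counts 4 rose and 1 fell against Ctrl.

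Promoter windows of the members were searched for the antioxidant response element, since this is the site of NFE2L1. The windows are RefSeq's, build GRCh38.p14, from 250 bases before to 50 after the first listed start of each gene, and 43 of the 49 symbols matched. PSMA7, PSMB1, PSMB6, PSMB7, PSMD4 and PSMG3 did not match. The element was searched as TGACNNNGC on both strands. It was found in 14 of 43 member windows (32.6%), against 13.6% of 27305 genes. Those genes were not filtered for gene type or expression, so these shares are not matched for either, and the difference was not tested. Of the members that passed one way in both CRLM1-OE comparisons, 8 of 20 lower and 1 of 4 higher held it. The heat shock element, searched on both strands as GAA, TTC and GAA with 2 bases between units, was in 0 member windows and in 0.487% of all genes. A match is a string of letters and not a measured binding site. The 8 matches before the start in those members are shown with 20 bases on each side, read 5′ to 3′ on the gene's strand, the match in capitals:
VCP: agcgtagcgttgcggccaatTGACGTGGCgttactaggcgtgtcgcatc
PSME4: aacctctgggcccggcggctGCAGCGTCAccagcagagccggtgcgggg
PSME1: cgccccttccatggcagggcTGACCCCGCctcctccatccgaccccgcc
PSME2: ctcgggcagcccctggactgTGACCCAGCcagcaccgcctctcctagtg
PSMD5: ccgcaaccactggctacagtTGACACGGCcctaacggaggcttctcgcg
PSMD12: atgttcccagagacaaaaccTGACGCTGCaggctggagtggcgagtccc
PSMG1: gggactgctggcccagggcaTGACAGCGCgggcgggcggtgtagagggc
PSMG2: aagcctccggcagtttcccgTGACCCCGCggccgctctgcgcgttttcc
The match of PSMD1 lies after the start and is not shown. The windows lie at chr9:35072786-35072834, minus strand (VCP), chr2:53970999-53971047, minus strand (PSME4), chr14:24136088-24136136, plus strand (PSME1), chr14:24146757-24146805, minus strand (PSME2), chr9:120843028-120843076, minus strand (PSMD5), chr17:67366714-67366762, minus strand (PSMD12), chr21:39183606-39183654, minus strand (PSMG1) and chr18:12658679-12658727, plus strand (PSMG2). The VCP match, whose gene rose, begins 189 bases before the start. The PSME4 match is on the opposite strand and begins 34 bases before the start. PSME3, the member with the largest fall among those read deeply, and PSMD2, which rose, held no match in their windows.

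A scaling moves members and other genes by nearly the same amount by construction, so places relative to the well-read median carry over between scalings. For CRLM1-OE against Ctrl, 6 of 14 core and 5 of 18 regulatory subunits lay above the median of the well-read genes. For CRLM1-OE against Anti these numbers were 9 and 8, and for Anti against Ctrl 4 and 8.

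**Figure D5:**
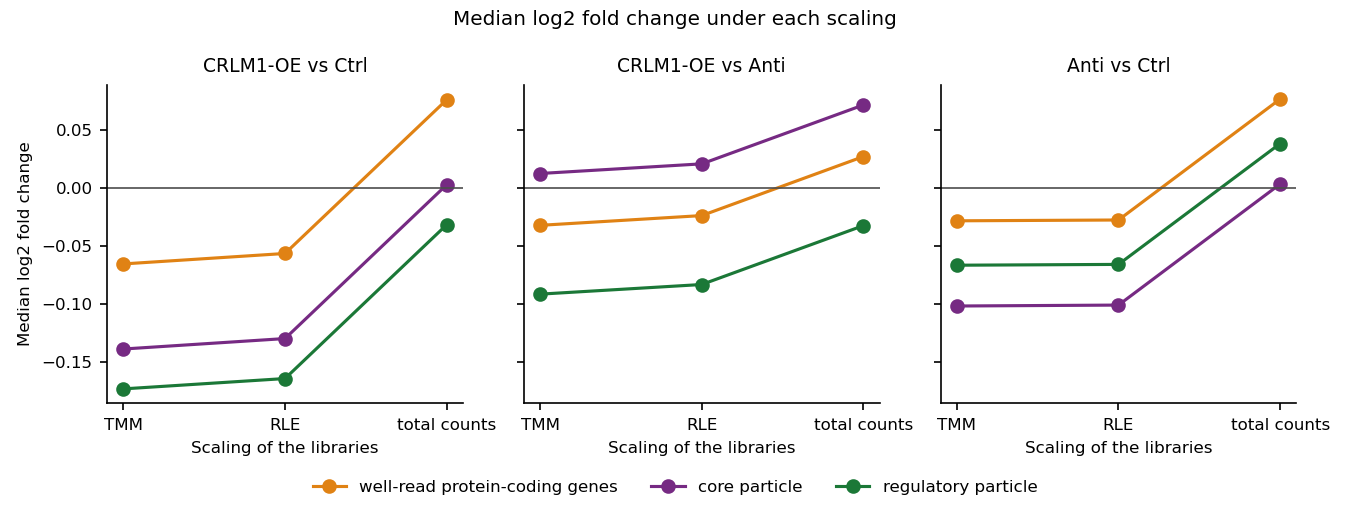
Median log2 fold change of the core particle, the regulatory particle and the 7936 well-read protein-coding genes under 3 scalings of the libraries, for each comparison. With total counts all 3 medians move up together: the core median against Ctrl goes from -0.14 to 0.00 and the well-read median from -0.07 to 0.08.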

How the data were processed

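Polyadenylated RNA of 9 HCT116 samples was sequenced as paired reads of 151 nt. The authors trimmed reads, kept those of at least 16 nt, aligned them to GRCh38 with TopHat2 allowing 4 mismatches, and deposited counts of uniquely aligned reads per gene with GENCODE 23. Their FPKM values, deposited for the same libraries, divide these counts by gene length and library size. Whether counting used strand, and the rule by which genes were listed as expressed, are not given in the sources used here. The members and gene lists were chosen with earlier results of these data known. Counts were fitted in edgeR 4.0.16 (R 4.3.3) with TMM factors and the quasi-likelihood test, each comparison on its own 6 libraries, over genes with at least 1 count, with Benjamini-Hochberg adjustment over all genes tested. Printed CPM use factors over all 9 libraries. Standard errors are the absolute log2 fold change divided by the square root of F. Alternatives were other scalings, count filters, DESeq2 1.42.0, 1 fit of all 9 libraries, a replicate block, limma 3.58.1 on log2(FPKM + 1) or log2(FPKM + 0.1), omission of each library, and the 2-fold rule. On simulated counts the edgeR test recovered 72%, 78% and 71% of planted changes of 0.3 (log2) for CRLM1-OE against Ctrl, CRLM1-OE against Anti and Anti against Ctrl. False calls were 5.49%, 5.82% and 2.84% of all calls. The simulation gave all genes the same dispersion and held no shift in composition. It therefore cannot speak to the choice of scaling, and changes smaller than 0.3 were not planted. Total counts ran from 33302292 to 44514692, so a floor of 3 counts was 0.0674 to 0.0901 CPM, which covers counting error only. Replicates of a group differed by more than sampling noise (chi-square per degree of freedom of 2.01 to 3.73 over 12941 genes) and were kept apart. Positions are from GENCODE 44 on GRCh38. Named genes were all members plus genes of the other lists with an absolute log2 fold change of at least 0.5 that passed, and PSMB9, SEM1, DDI2 and RPS27A, named after their values were seen. Members of 2 entries stand by the entry with the higher count, also chosen after the counts were seen. The planned likeness ranking to NFE2L1 was left out, because the samples form 3 separate groups. The list of ubiquitin genes, apart from RPS27A, is not reported here.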

Additional observations from a re-analysis of the deposited data

How the results depend on the processing

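Over the named single-member results, 889 refits with another setting kept the direction and the side of the threshold, 119 kept the direction alone and 22 turned it, and with 1 library left out 590 kept both and 28 the direction alone. Residual correlations between groups were -0.033 to 0.078 for same-numbered samples and -0.046 to 0.075 for differently numbered ones. No pairing by replicate number was seen, but counting noise weighs on such residuals, and a weak shared batch was not tested. With the replicate number as a block 5 members rose and 31 fell in CRLM1-OE against Ctrl. By the same fit 15 members rose and 24 fell in CRLM1-OE against Anti, and 9 rose and 21 fell in Anti against Ctrl. No call among the named members was lost with this block. For CRLM1-OE against Ctrl, 18 rose and 13 fell with total counts, 5 rose with DESeq2, 13 rose and 15 fell with limma on log2(FPKM + 1), 13 rose and 15 fell with a pseudocount of 0.1, 14 rose and 16 fell with mean FPKM of at least 1, and 0 rose and 0 fell at the 2-fold rule. Its core median was 0.0028 (total counts), -0.1238 (filterByExpr), -0.1136 (at least 10 counts in every sample), -0.0240 (limma on log2(FPKM + 1) and limma on log2(FPKM + 1), mean FPKM at least 1), -0.0241 (limma on log2(FPKM + 0.1)). Its regulatory median was -0.0316 (total counts), -0.0557 (limma on log2(FPKM + 1) and limma on log2(FPKM + 1), mean FPKM at least 1), -0.0584 (limma on log2(FPKM + 0.1)). For CRLM1-OE against Anti, 18 rose and 21 fell with total counts, 15 rose with DESeq2, 16 rose and 19 fell with limma on log2(FPKM + 1), 16 rose and 19 fell with a pseudocount of 0.1, 17 rose and 21 fell with mean FPKM of at least 1, and 0 rose and 2 fell at the 2-fold rule. Its core median was 0.0714 (total counts), 0.0267 (at least 10 counts in every sample), 0.0574 (limma on log2(FPKM + 1) and limma on log2(FPKM + 1), mean FPKM at least 1), 0.0578 (limma on log2(FPKM + 0.1)), -0.0040 (own gene IDs of PSMA1 and PSMA2). Its regulatory median was -0.0324 (total counts), -0.0451 (limma on log2(FPKM + 1) and limma on log2(FPKM + 1), mean FPKM at least 1), -0.0462 (limma on log2(FPKM + 0.1)). For Anti against Ctrl, 21 rose and 7 fell with total counts, 5 rose with DESeq2, 10 rose and 9 fell with limma on log2(FPKM + 1), 11 rose and 9 fell with a pseudocount of 0.1, 16 rose and 10 fell with mean FPKM of at least 1, and 0 rose and 0 fell at the 2-fold rule. Its core median was 0.0034 (total counts), -0.0762 (1 fit of all 9 samples), -0.0102 (limma on log2(FPKM + 1) and limma on log2(FPKM + 1), mean FPKM at least 1), -0.0103 (limma on log2(FPKM + 0.1)), -0.0830 (own gene IDs of PSMA1 and PSMA2). Its regulatory median was 0.0382 (total counts), -0.0415 (1 fit of all 9 samples), 0.0256 (limma on log2(FPKM + 1) and limma on log2(FPKM + 1), mean FPKM at least 1), 0.0261 (limma on log2(FPKM + 0.1)). Signs turned in CRLM1-OE against Ctrl for ADRM1 (0.0501 with total counts and 0.0226 to 0.0228 with limma), NFE2L1 (0.0925 with total counts and 0.0650 to 0.0664 with limma), PSMA7 (0.0775 with total counts and 0.0497 to 0.0501 with limma), PSMB4 (0.0184 with total counts), PSMC4 (0.0151 with total counts), PSMD3 (0.0283 with total counts and 0.0011 with limma), PSME2 (0.0257 with total counts). Signs turned in Anti against Ctrl for PSMA7 (0.0070 with total counts), PSMD2 (0.0055 with total counts), PSME1 (0.0005 with total counts). Leaving out 1 library gave 4 to 5 higher and 28 to 30 lower members in CRLM1-OE against Ctrl, with medians of -0.1385 to -0.1224 (core) and -0.1921 to -0.1476 (regulatory). Leaving out 1 library gave 12 to 16 higher and 22 to 24 lower members in CRLM1-OE against Anti, with medians of -0.0065 to 0.0344 (core) and -0.0982 to -0.0799 (regulatory). Leaving out 1 library gave 5 to 9 higher and 20 to 22 lower members in Anti against Ctrl, with medians of -0.1109 to -0.0861 (core) and -0.0786 to -0.0428 (regulatory). The entries of PSMA1 and PSMA2 under the gene's own ID were tried as an alternative chosen after seeing the data. The cause of the values that moved was not tested. Total counts and FPKM carry no composition factors. PSMB11 lay under the floor of 3 counts and PSMB8 rested on 13 to 45, so depth limits what can be read from them.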
